A study of Mus musculus with 4 samples.

Results

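The guanylate-binding proteins of the mouse were followed as 9 genes, *Gbp2*, *Gbp3*, *Gbp4*, *Gbp5*, *Gbp6*, *Gbp7*, *Gbp8*, *Gbp9* and *Gbp10*, chosen by name from the 55359 gene identifiers of the count table. They were measured by bulk RNA-seq in T8 cells, a line grown from a precursor B cell leukemia of an *Irf4*-/- mouse. Both groups therefore carry the *Irf4*-/- genotype, in which the gene of this interferon regulatory factor is disrupted, and both come from 1 tumor with an acquired *Jak3* mutation. The control cells received EV-RV, a retrovirus that encodes GFP only, and the other cells received IRF4-RV, which encodes IRF4 together with GFP. RNA was taken 24 h after transduction, and each group had 2 libraries. The protocol text of the labels names another line, T11, whereas sample titles and tissue name T8.

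Guanylate-binding proteins are large GTPases of the dynamin superfamily. They are strongly induced by interferons, above all interferon-γ, and the transcription factor IRF1 takes part in that induction. The proteins bind GTP, assemble into oligomers and coat the vacuoles or the surface of intracellular bacteria and parasites, which leads to membrane damage and to recognition by inflammasomes. In the mouse genome (GRCm38) the genes form a cluster on chromosome 3 with *Gbp5*, *Gbp7*, *Gbp3* and *Gbp2*, and a cluster on chromosome 5 with *Gbp8*, *Gbp9*, *Gbp4*, *Gbp10* and *Gbp6*.

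The DNA upstream of these genes is where factors of the interferon pathway are known to bind, and the promoters of the chromosome 3 members are shown for that reason. Each sequence runs 5′ to 3′ from 250 bases before to 50 bases after the gene's start in RefSeq (GRCm38.p6). Capitals mark matches, on either strand, to 3 motifs: the core of the interferon-stimulated response element, which is GAAA followed after any 2 bases by GAAA, the gamma-activated sequence TTCNNNGAA, and the ETS-IRF composite, which is GGAA followed after any 2 bases by GAAA.
*Gbp2* promoter, chr3:142620413-142620712, + strand: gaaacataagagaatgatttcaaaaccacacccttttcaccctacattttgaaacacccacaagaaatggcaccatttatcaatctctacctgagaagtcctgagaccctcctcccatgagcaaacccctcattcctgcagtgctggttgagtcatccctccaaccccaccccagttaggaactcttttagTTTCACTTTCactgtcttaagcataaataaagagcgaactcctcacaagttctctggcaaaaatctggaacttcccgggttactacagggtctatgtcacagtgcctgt
*Gbp3* promoter, chr3:142559794-142560093, + strand: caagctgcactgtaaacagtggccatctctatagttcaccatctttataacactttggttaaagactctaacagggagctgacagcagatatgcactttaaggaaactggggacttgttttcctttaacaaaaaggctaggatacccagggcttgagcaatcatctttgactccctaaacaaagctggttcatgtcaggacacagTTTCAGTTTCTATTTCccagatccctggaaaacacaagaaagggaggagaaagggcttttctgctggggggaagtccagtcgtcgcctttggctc
*Gbp5* promoter, chr3:142496684-142496983, + strand: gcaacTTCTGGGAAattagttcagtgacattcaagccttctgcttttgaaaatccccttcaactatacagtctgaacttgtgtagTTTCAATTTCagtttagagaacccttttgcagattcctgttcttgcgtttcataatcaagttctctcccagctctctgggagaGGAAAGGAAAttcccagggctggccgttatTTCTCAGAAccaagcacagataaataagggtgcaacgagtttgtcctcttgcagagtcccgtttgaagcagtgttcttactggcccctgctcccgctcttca
*Gbp7* promoter, chr3:142530086-142530385, + strand: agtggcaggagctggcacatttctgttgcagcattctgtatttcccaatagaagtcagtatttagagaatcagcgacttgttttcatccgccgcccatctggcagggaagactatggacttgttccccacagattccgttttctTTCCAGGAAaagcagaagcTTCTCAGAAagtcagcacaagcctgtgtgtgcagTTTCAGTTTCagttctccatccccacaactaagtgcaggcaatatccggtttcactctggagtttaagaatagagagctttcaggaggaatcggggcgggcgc

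The response element core was in all 4 windows. It lay at positions -59 to -50 from the start in *Gbp2* and at -53 to -44 in *Gbp7*. In *Gbp3* there were 2 overlapping matches, at -45 to -36 and at -39 to -30, and in *Gbp5* the match lay at -165 to -156. The gamma-activated sequence was found in *Gbp5*, at -245 to -237 and -52 to -44, and in *Gbp7*, at -106 to -98 and -87 to -79. The composite was found in *Gbp5* only, at -82 to -73. The *Gbp5* window lies inside the gene as GENCODE M21 places it (chr3:142493978-142522344, + strand), and the DNA before that start was not searched. Of the 32851 RefSeq promoter windows of this length, 3.44% held the core, 8.30% the gamma-activated sequence and 2.72% the composite. A second RefSeq window of *Gbp3*, at chr3:142560106-142560405, held none of the 3 motifs. These matches are descriptions of the letters, and binding was not measured.

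The libraries held 31230223 to 37817752 counts, so that 3 counts corresponded to 0.0823 to 0.0951 CPM (counts per 1e6 counts). CPM values here are scaled by TMM, a correction for differences in RNA composition. *Irf4* itself rose from 8070 and 7600 counts with EV-RV to 95578 and 90693 counts with IRF4-RV, reads from the vector included. The EV-RV libraries thus held 242 and 241 CPM of *Irf4* although the cells carry the *Irf4*-/- genotype and received no IRF4 vector. Counts per gene do not show which part of the transcript these reads cover, and the deleted part is not given in the sources used here, so they do not check the genotype. Of the 10 B lineage markers, 9 had at least 3316 counts in every library, among them *Cd79a*, a signalling chain of the B cell receptor, with 29068 to 33036 counts, and *Rag1* had 0 or 1. *Igll1* and *Vpreb1*, which encode the surrogate light chain, were lower with IRF4-RV (log2 fold changes -1.30 and -1.49, edgeR adjusted p = 5.95e-05 and 3.82e-05), and *Ptprc* was higher (0.53, edgeR adjusted p = 0.0109). IRF4-RV replicate 2 stood apart by its stromal cell markers. The 10 genes of that list summed to 80.1 and 146 CPM with EV-RV and to 83.0 and 350 CPM with IRF4-RV, and their part in the results was not tested. The values of the *Gbp* genes are given with and without that library.

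IRF4-RV cells held more RNA of the guanylate-binding proteins than EV-RV cells. Together the 9 genes gave 66.1 and 53.8 CPM in EV-RV cells against 176 and 172 CPM in IRF4-RV cells, a 2.90-fold difference of the group means (60.0 ± 8.71 against 174 ± 2.61 CPM, SD, n = 2). The groups did not overlap. In bulk RNA, more cells with the transcript and more transcript per cell cannot be told apart.

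The low-count filter kept 8 of the 9 genes, all but *Gbp8*. Of these, 8 were called higher with IRF4-RV and 0 lower in edgeR's quasi-likelihood test at a false discovery rate of 0.1. *Gbp6* and *Gbp10* passed the filter only through their IRF4-RV counts, so only a higher call was open to them. Of the 14637 genes tested, 16.0% were called higher and 13.7% lower (29.7% in either direction), with 11.9% and 19.6% when scaled by library size alone. The median log2 fold change was 2.67 over the 8 members tested and 0.01 over all genes. A call with a log2 fold change above 2 was reached by 6 members and by 1.69% of all genes. *Gbp6* and *Gbp10* are among these 6 and also enter the median of the members. All 9 members, *Gbp8* included, had both IRF4-RV libraries above both EV-RV libraries, as did 31.3% of the genes tested. The p-values measure only the spread between these libraries.

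**Figure D1:**
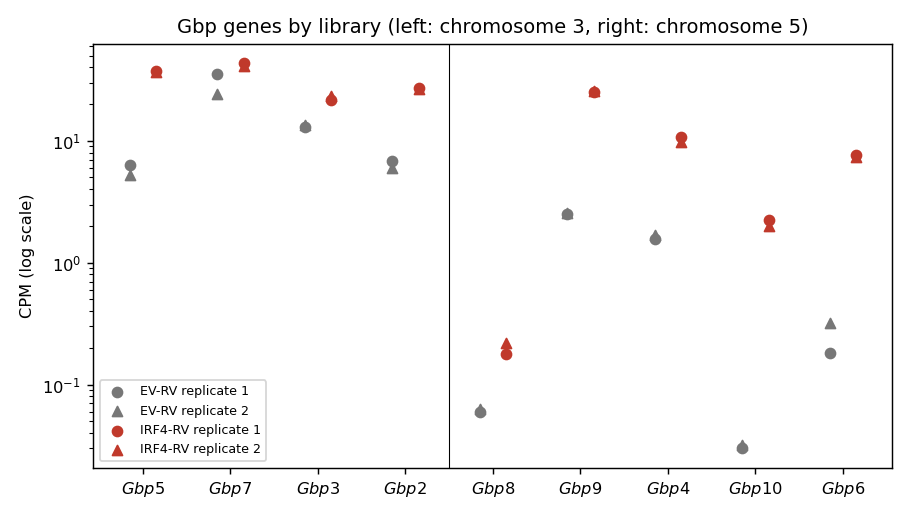
CPM (TMM-scaled, log axis) of the 9 *Gbp* genes, with 1 grey point per EV-RV library and 1 red point per IRF4-RV library (circles for replicate 1, triangles for replicate 2) and chromosome 3 to the left of the line. The IRF4-RV points lie above the EV-RV points for every gene, narrowly for *Gbp7* (35.4 and 24.4 against 43.3 and 40.8) and widely for *Gbp6* and *Gbp10*.

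On chromosome 3, *Gbp5* changed most. *Gbp5* (ENSMUSG00000105504, chr3:142493978-142522344, + strand) encodes a prenylated protein known to promote NLRP3 inflammasome assembly. It had 213 and 166 counts with EV-RV against 1276 and 1338 counts with IRF4-RV, or 5.82 ± 0.791 and 37.2 ± 0.654 CPM (SD, n = 2). The libraries of each group lay close together and the groups were far apart. The log2 fold change was 2.67 (SE 0.120, 95% interval 2.39 to 2.95, edgeR adjusted p = 8.12e-06), a 6.38-fold difference.

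*Gbp2* (ENSMUSG00000028270, chr3:142620602-142638008, + strand), also prenylated at its C-terminus and among the members that coat *Toxoplasma* vacuoles, had 230 and 190 counts with EV-RV against 923 and 964 with IRF4-RV. This was 6.45 ± 0.613 and 26.8 ± 0.547 CPM (SD, n = 2), again with no overlap. The log2 fold change was 2.05 (SE 0.114, 95% interval 1.79 to 2.32, edgeR adjusted p = 2.28e-05). *Gbp2* was thus 4.15-fold higher.

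The other members of the chromosome 3 cluster started from higher levels and changed less. *Gbp3* (ENSMUSG00000028268, chr3:142560026-142573209, + strand) went from 438 and 427 counts to 733 and 848 counts, that is from 13.3 ± 0.293 to 22.4 ± 1.17 CPM (SD, n = 2). Its log2 fold change was 0.75 (SE 0.101, 95% interval 0.52 to 0.99, edgeR adjusted p = 0.00159). *Gbp3* was 1.69-fold higher, and its groups stayed apart.

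*Gbp7* (ENSMUSG00000040253, chr3:142530342-142550149, + strand) had the smallest log2 fold change of the 8 members tested. Its counts were 1182 and 769 with EV-RV against 1468 and 1486 with IRF4-RV, or 29.9 ± 7.80 and 42.0 ± 1.79 CPM (SD, n = 2). EV-RV replicate 1 lay nearer to the IRF4-RV libraries than to EV-RV replicate 2. The log2 fold change was 0.49 (SE 0.161, 95% interval 0.12 to 0.86, edgeR adjusted p = 0.0653). Without EV-RV replicate 2 it was 0.25 (edgeR adjusted p = 0.169), without EV-RV replicate 1 it was 0.78 (edgeR adjusted p = 0.00351), and with library size as the only scaling it was 0.40 (edgeR adjusted p = 0.169).

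The chromosome 5 members were low in EV-RV cells. The median log2 fold change was 4.11 over the 4 of them tested and 1.40 over the 4 members on chromosome 3. The value of 4.11 is the midpoint between *Gbp9* (3.32) and *Gbp6* (4.90). Above it lie *Gbp6* and *Gbp10*, which passed the low-count filter only through IRF4-RV. These 2 genes also share exon sequence with each other and are uncertain as separate genes. *Gbp8* was too low to be tested and does not enter the median. *Gbp9* (ENSMUSG00000029298, chr5:105077630-105139539, - strand) had 84 and 80 counts with EV-RV against 848 and 929 counts with IRF4-RV, or 2.53 ± 0.0139 and 25.3 ± 0.338 CPM (SD, n = 2). Both pairs of libraries were nearly equal within their group. The log2 fold change was 3.32 (SE 0.119, 95% interval 3.04 to 3.60, edgeR adjusted p = 2.66e-06), a 9.99-fold difference with the smallest adjusted p of the members.

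*Gbp4* (ENSMUSG00000079363, chr5:105115767-105139586, - strand) had 52 and 53 counts with EV-RV against 367 and 353 counts with IRF4-RV, or 1.62 ± 0.0865 and 10.3 ± 0.806 CPM (SD, n = 2). Its log2 fold change of 2.66 (SE 0.165, 95% interval 2.28 to 3.04, edgeR adjusted p = 3.46e-05) was close to that of *Gbp5*, from a lower level in CPM. *Gbp8* (ENSMUSG00000034438, chr5:105014150-105139540, - strand) was barely detected, with 2 and 2 counts against 6 and 8 counts. The ratio of its summed counts, scaled for depth, was 3.23 with a 95% interval of 1.02 to 13.5 that covers counting error only, and it was not called when every gene with a count was tested (log2 fold change 1.63, edgeR adjusted p = 0.52).

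*Gbp6* and *Gbp10* went from a few counts to clearly detected. *Gbp6* (ENSMUSG00000104713, chr5:105270702-105293698, - strand) had 6 and 10 counts with EV-RV against 257 and 267 counts with IRF4-RV, or 0.248 ± 0.0970 and 7.45 ± 0.180 CPM (SD, n = 2). Its log2 fold change was 4.90 (SE 0.273, 95% interval 4.26 to 5.53, edgeR adjusted p = 2.44e-05). *Gbp10* (ENSMUSG00000105096, chr5:105215699-105239533, - strand) had 1 and 1 counts with EV-RV against 76 and 73 counts with IRF4-RV. The ratio of the summed counts was 68.8, with a wide 95% interval of 18.7 to 573 for counting error, and the edgeR adjusted p was 0.000183. Of the genes tested, 0.266% had a larger log2 fold change than *Gbp6*.

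**Figure D2:**
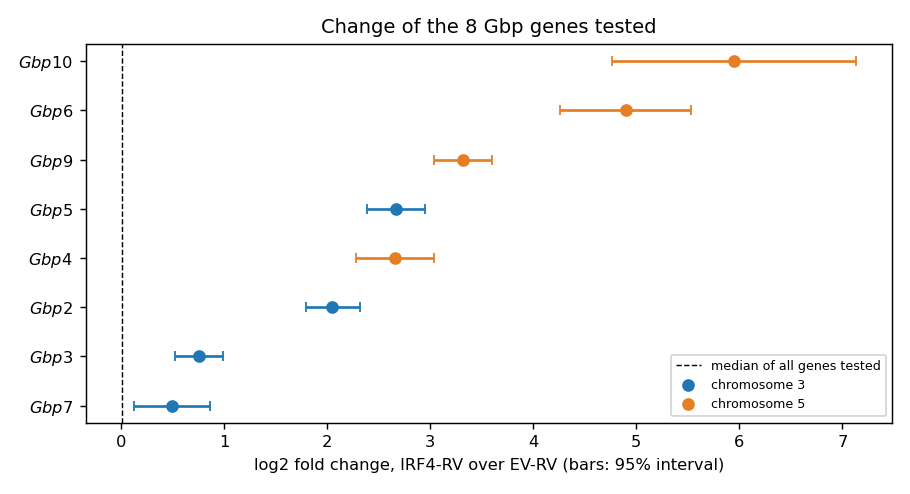
Log2 fold change (IRF4-RV over EV-RV) of the 8 *Gbp* genes tested, with points for the edgeR estimate (blue for chromosome 3, orange for chromosome 5), bars for its 95% interval and a dashed line at the median of all genes tested (0.01). The chromosome 5 genes reach from 2.66 (*Gbp4*) to 5.95 (*Gbp10*, whose fitted value rests on 1 and 1 counts with EV-RV) and the chromosome 3 genes from 0.49 (*Gbp7*) to 2.67 (*Gbp5*).

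The fold changes were much the same without the IRF4-RV library that was high in stromal markers. Without IRF4-RV replicate 2, the log2 fold changes were 2.08 for *Gbp2*, 0.70 for *Gbp3*, 2.74 for *Gbp4*, 2.70 for *Gbp5*, 4.92 for *Gbp6*, 0.54 for *Gbp7*, 3.31 for *Gbp9* and 6.03 for *Gbp10*, and all 8 were still called higher. The lone IRF4-RV library is assumed in that fit to vary like the EV-RV libraries.

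Some of these genes share sequence, which limits how their reads can be assigned. In words of 50 bases, 76.2% of the *Gbp10* exon sequence and 49.9% of that of *Gbp6* also occurred in another *Gbp* gene, mostly each other. The share was 18.1% for *Gbp8*, 8.05% for *Gbp9*, 7.53% for *Gbp4*, at most 3.75% for *Gbp2*, *Gbp3* and *Gbp7*, and 0% for *Gbp5*. An annotated readthrough locus, *Gm43302* (ENSMUSG00000079362, chr5:105214907-105293695, - strand, named after its values were seen), covers 46.3% of the exon bases of *Gbp10* and 29.0% of those of *Gbp6* on the same strand, and had 0 and 2 counts against 40 and 36 counts. *Gbp6* and *Gbp10* are therefore uncertain as separate genes. Summed with *Gm43302* they had 7 and 13 counts with EV-RV against 373 and 376 with IRF4-RV (log2 fold change 5.09, SE 0.258, edgeR adjusted p = 1.49e-05). *Gbp8*, *Gbp9* and *Gbp4* share a 5′ start of 60 to 61 bases, 0.814% to 1.77% of their exon bases.

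Other annotated *Gbp* loci, which are not among the 9, had few counts. *Gbp2b*, the gene formerly called *Gbp1*, had 1 and 6 counts with EV-RV against 5 and 11 counts with IRF4-RV, so that the groups overlapped. *Gbp11* had 1 and 3 against 2 and 3 counts, and *Gbp2-ps* had 1 count in all. None of the 3 passed the low-count filter.

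The shares that the genes took of the family's counts were also compared. Members on chromosome 5 held 6.57% (95% Wilson interval 5.61 to 7.68) and 8.60% (7.36 to 10.0) of the *Gbp* counts with EV-RV, against 26.1% (25.0 to 27.2) and 26.0% (24.9 to 27.1) with IRF4-RV. These intervals cover counting error only. The shares did not overlap, and the exact permutation test of the group means, two-sided, gave p = 0.333, the smallest value that 2 against 2 libraries allow. Summed over all annotated *Gbp* loci of chromosome 3, *Gbp2b* and *Gbp2-ps* included, counts rose 2.31-fold (log2 fold change 1.21, SE 0.111, edgeR adjusted p = 0.000255). Those of chromosome 5, with *Gbp11* included, rose 9.97-fold (3.32, SE 0.106, edgeR adjusted p = 1.59e-06).

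Levels can be compared between genes only per length, here as CPM per kilobase of exon. With EV-RV the order was *Gbp7* (6.31 and 4.34), *Gbp3* (4.02 and 4.14), *Gbp2* (2.74 and 2.39), *Gbp5* (0.961 and 0.793), and then the chromosome 5 genes, *Gbp9* leading with a mean of 0.488 and *Gbp4* next with 0.216. *Gbp7* and *Gbp3* differed by less than the SD of *Gbp7* (1.39), and the last 3, *Gbp6*, *Gbp8* and *Gbp10*, lay at or below 0.0417 on 10 counts or fewer per library. With IRF4-RV the order was *Gbp2* (10.8 and 10.5), *Gbp7* (7.71 and 7.26), *Gbp3* (6.62 and 7.13), *Gbp5* (5.67 and 5.53) and *Gbp9* (4.84 and 4.93). *Gbp2* moved from the third to the first place, while *Gbp7* fell from 42.7% and 34.8% to 19.8% and 18.9% of the summed length-scaled level. *Gbp9* went from 3.29% and 3.93% to 12.4% and 12.8%. With the length of the longest transcript in place of all exons, *Gbp5* stood in the second place with IRF4-RV and *Gbp7* in the fourth.

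**Figure D3:**
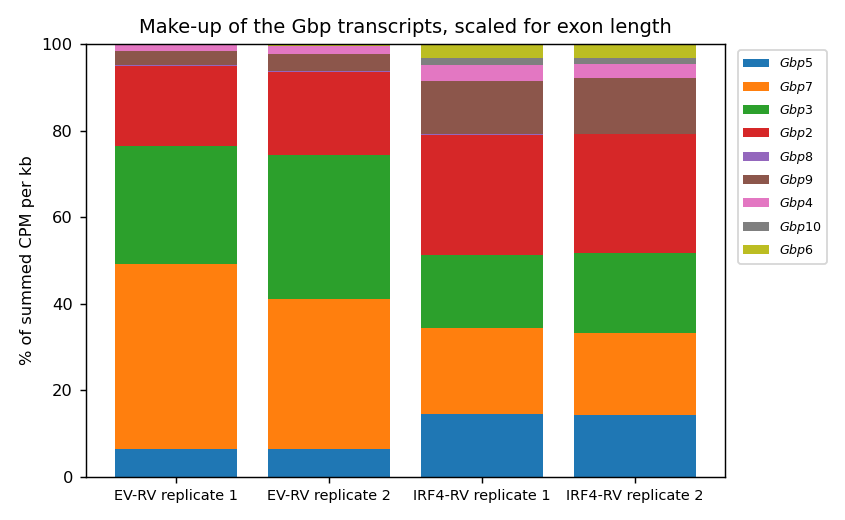
Percent of the summed level of the 9 *Gbp* genes (CPM per kilobase of exon) held by each gene, in 1 stacked bar per library. *Gbp7* and *Gbp3* take most of the EV-RV bars (42.7% and 27.2% in replicate 1), and *Gbp2*, *Gbp5* and *Gbp9* take more of the IRF4-RV bars (27.7%, 14.5% and 12.4% in replicate 1).

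The neighbours of the clusters were examined in the same fit. Of the 12 protein-coding genes nearest to the clusters, 3 on each side, 9 passed the low-count filter. Over all genes tested 29.7% were called in either direction, and nothing particular to the neighbours is read from how many were called. On chromosome 3, *Pdlim5*, 98.3 kb away, had a log2 fold change of 0.36 (edgeR adjusted p = 0.0222) and was not called without IRF4-RV replicate 1 (adjusted p = 0.184). *Kyat3*, which encodes kynurenine aminotransferase, lay 32 kb away and had -0.33 (edgeR adjusted p = 0.0592). That call was lost without EV-RV replicate 1, EV-RV replicate 2 or IRF4-RV replicate 2 (edgeR adjusted p = 0.132, 0.159 and 0.376). *Gtf2b*, a general transcription factor, had 0.18 (edgeR adjusted p = 0.189). On chromosome 5 the zinc finger gene *Zfp951*, 154 kb away, was called higher with 0.79 (edgeR adjusted p = 0.00409), and the other 4 tested, *Pkd2*, *Lrrc8b*, *Lrrc8c* and *Lrrc8d*, were not called. The value of *Zfp951* lay below those of 6 *Gbp* genes and above those of *Gbp3* and *Gbp7*, and the difference between members and neighbours was not tested.

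**Figure D4:**
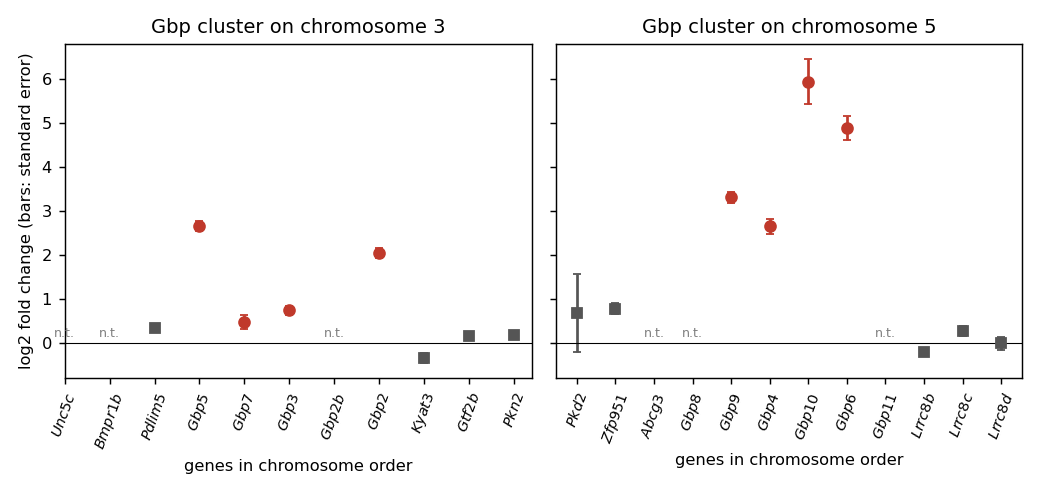
Log2 fold change (IRF4-RV over EV-RV) of the *Gbp* genes and their nearest protein-coding neighbours in their order along chromosome 3 and chromosome 5, with circles for *Gbp* genes, squares for neighbours, bars for the standard error and n.t. for genes not tested. Neighbours range from -0.33 (*Kyat3*) to 0.79 (*Zfp951*), and the *Gbp* genes between them from 0.49 to 5.95.

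Other GTPases of the interferon response were compared with the *Gbp* genes. Of the immunity-related GTPases, which act with guanylate-binding proteins on pathogen vacuoles, 8 of 10 were tested and all 8 were higher, with a median log2 fold change of 2.75, where 16.0% of all genes tested were called higher. *Irgm2*, a regulator that keeps the family off host membranes, had 268 and 234 counts with EV-RV against 2055 and 2243 with IRF4-RV (2.98, edgeR adjusted p = 1.90e-06). *Iigp1*, an effector that disrupts the vacuole, had 1 and 2 counts against 348 and 460 counts. All 4 other interferon-inducible GTPases were higher, with a median of 3.41. Of these, *Gvin1* (2111 and 1407 against 10202 and 8798 counts) and *Gm4070* (1982 and 1346 against 9704 and 8392) had nearly the same counts. Whether they share reads was not tested, so the 4 may not count as separate genes. *Mx1* had 0 and 1 counts with EV-RV against 47 and 33 with IRF4-RV, and *Mx2* had 4 and 4 against 98 and 102. *Mx1*, *Mx2* and *Iigp1* passed the low-count filter only through IRF4-RV, so only a higher call was open to them. Of the 7 atlastins and dynamins, related GTPases that shape membranes without interferon, 0 were called by edgeR and 0 by DESeq2. At an unadjusted p under 0.05 in edgeR there were 0. DESeq2 gave no adjusted p for *Atl1*, *Dnm1* and *Dnm3*, which had 4 to 28 counts per library. The median was 0.04, which is the value of *Atl1* (SE 0.556). Over all genes 29.7% were called in either direction, and nothing particular to these 7 genes is read from their count.

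The path from interferon to the *Gbp* genes was read from the ligand down. *Ifng*, encoding interferon-γ, had 0 and 0 counts with EV-RV against 29 and 35 with IRF4-RV (edgeR adjusted p = 0.00182). It passed the low-count filter only through IRF4-RV, so only a higher call was open to it. The other 10 ligand genes summed to 1 and 3 against 3 and 0 counts. Of 9 receptors and kinases, 5 were higher and 0 lower, against 16.0% and 13.7% of all genes. The receptor chain *Ifngr1* had a log2 fold change of 0.07 (95% interval -0.13 to 0.27) and *Jak1* 0.02 (-0.22 to 0.26), neither called, and *Jak2* had 0.31 (edgeR adjusted p = 0.113). The second chain, *Ifngr2*, was higher by 0.41 (edgeR adjusted p = 0.0164), a call lost without IRF4-RV replicate 1 (adjusted p = 0.121). The type I receptor chains *Ifnar1* and *Ifnar2* were higher by 1.02 and 0.69, and *Ifnlr1*, the interferon-λ chain, by 1.10.

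Of the 10 interferon-response transcription factors tested, 8 were higher and 1 lower, again against 16.0% and 13.7% of all genes. *Stat2* and *Irf9*, whose products are parts of the complex that binds the response element, had 1.88 and 1.72 (edgeR adjusted p = 3.20e-05 and 2.27e-05). *Irf7* had 1.93 and *Irf1* 1.38 (edgeR adjusted p = 4.53e-05 and 5.51e-05). *Irf8* was lower by the test, with -0.32 (edgeR adjusted p = 0.0152), a call lost without IRF4-RV replicate 2 (adjusted p = 0.134). Among 6 feedback inhibitors only *Usp18*, which restrains type I receptor signalling, was called, with 49 and 51 counts against 2277 and 3023 (5.60). *Socs1*, which restrains JAK kinases after interferon-γ, was not called, at -0.05 (95% interval -0.29 to 0.19).

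**Figure D5:**
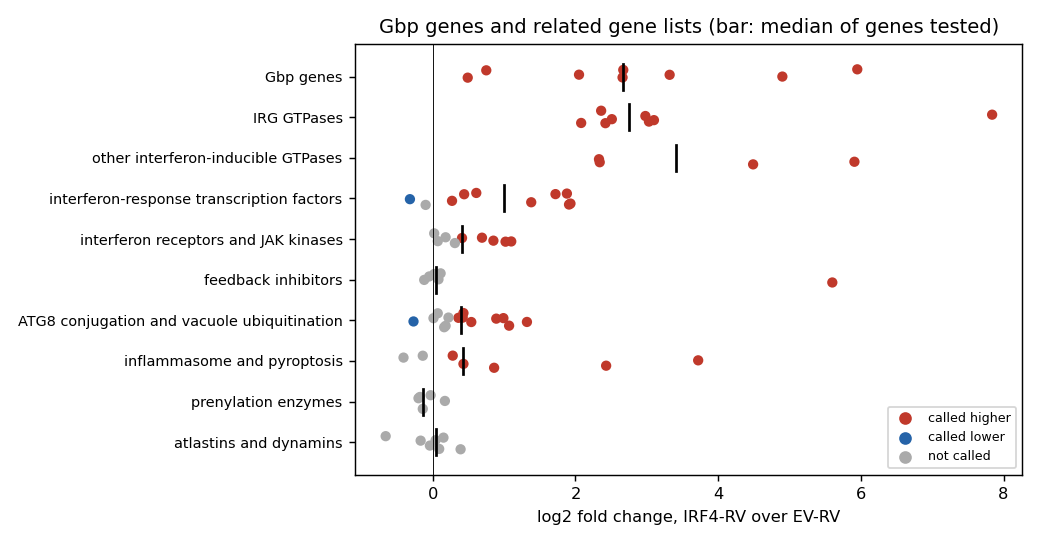
Log2 fold change (IRF4-RV over EV-RV) of each gene tested in the *Gbp* family and in the related lists, 1 row per list, with red points for genes called higher and blue points for genes called lower at a false discovery rate of 0.1, grey points for genes not called and a bar at the list's median. Height within a row carries no value. Medians lie at 2.67 for the *Gbp* genes and 2.75 for the immunity-related GTPases, and at 0.04 for the atlastins and dynamins and -0.14 for the prenylation enzymes.

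The genes that guanylate-binding proteins work with were mixed. The 5 prenylation enzymes, as listed here, include enzymes that process proteins after prenylation. Of these 5, 0 were called by edgeR, against 29.7% of all genes. At an unadjusted p under 0.05 there were 0, and DESeq2 called 0. Their log2 fold changes ran from -0.20 to 0.17. With library size only 1 of the 5 was called lower, and without EV-RV replicate 1 there were 2. Of 14 genes of ATG8 conjugation and vacuole ubiquitination, which direct these GTPases to vacuoles, 8 were higher and 1 lower (median 0.39), beside 16.0% and 13.7% of all genes. *Rnf213*, a ubiquitin ligase that coats vacuoles and bacteria, had 1.32, *Ube2l6* 1.07 and *Trim21* 0.99. Of 9 inflammasome and pyroptosis genes, *Pycard* and *Il1b* had at most 1 count in any library and were not tested. Of the 7 tested, *Nlrp3* and *Gsdmd* lay near the cutoff (edgeR adjusted p = 0.0963 and 0.0816) and were not called by DESeq2. In all, 5 of the 7 were higher by edgeR, beside 16.0% of all genes, and 2 by DESeq2, which gave *Casp4* no adjusted p. They included *Il18*, with a log2 fold change of 3.72, and *Casp4*, the sensor of cytosolic lipopolysaccharide (2.43, edgeR adjusted p = 0.113 without EV-RV replicate 1 and 0.147 without EV-RV replicate 2). Of all 71 genes tested in these lists, 40 were higher and 2 lower, beside 16.0% and 13.7% of all genes (11.9% and 19.6% with library size only). The lists were chosen with earlier results of these data known, so this count describes them and tests nothing. Among the 40, *Iigp1*, *Mx1*, *Mx2*, *Ifng*, *Il18* and *Casp4* passed the low-count filter only through IRF4-RV.

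Markers of other cells were compared as well, since interferon-γ is classically made by T and NK cells and macrophages hold much GBP. The 13 T and NK cell markers summed to 20.6 and 21.1 CPM with EV-RV and 13.6 and 14.0 CPM with IRF4-RV, and most of each sum was *Trac*, the T cell receptor α constant gene, with 613 and 603 against 391 and 420 counts (log2 fold change -0.70, edgeR adjusted p = 0.00229). *Klrb1c* (33 to 54 counts) and *Prf1* (24 to 26 counts) were detected and not called, and *Gzma* had 0 and 1 against 5 and 7 counts. *Cd8a*, *Cd8b1*, *Ncr1* and *Gzmb* were at 0 in every library, and the other 5 had at most 5 counts. The 11 macrophage markers summed to 1.53 and 1.49 against 8.59 and 7.49 CPM. Most of each IRF4-RV sum was *Mrc1*, the mannose receptor, with 24 and 23 against 260 and 230 counts (7.67 and 6.31 CPM with IRF4-RV). *Cd68* had 21 and 15 against 25 and 29 counts and was not called. *Adgre1* and *Mertk* were at 0 in every library, and the other macrophage markers had at most 9 counts in any library. The part of these cells in the *Gbp* values was not tested. Of the 8 stromal markers tested, 0 were called by edgeR, beside 29.7% of all genes. At an unadjusted p under 0.05 there were 0, and DESeq2 called 0. When every gene with a count was tested in edgeR, 7 of the 8 were called higher, beside 2571 of all 30985 genes. The log2 fold changes of the 8 ran from 1.45 to 1.89 without IRF4-RV replicate 1 and from -1.09 to -0.22 without IRF4-RV replicate 2.

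The genes outside the family whose pattern over the 4 libraries lay nearest to the median of the 8 *Gbp* genes were *Fcmr*, *Trim30a*, *Siglecg*, *Tifa* and *Pou6f1*. Nearness was the Euclidean distance between log2 CPM values centred on each gene's mean, among 12296 genes with a mean of at least 1 CPM. The median profile was -1.28 and -1.36 with EV-RV against 1.37 and 1.27 with IRF4-RV, nearly a step between the groups. The rule thus mainly picks genes of similar log2 fold change, and the fold changes below restate it. The distances were 0.120, 0.124, 0.151, 0.155 and 0.211. *Fcmr* encodes an IgM receptor and *Siglecg* an inhibitory lectin of B cells, with log2 fold changes of 2.73 and 2.61. *Trim30a* had 2.62, and *Tifa* and *Pou6f1* had 2.49 each.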

How the data were processed

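Bulk RNA-seq of T8 cells was analysed, with 2 EV-RV and 2 IRF4-RV libraries grouped by their titles. The study's design text calls them biological replicates. Per the labels, libraries were made with the NEBNext Ultra II kit. The authors aligned reads to GRCm38 with STAR 2.4.0j and deposited raw counts per gene from featureCounts. How strand and multi-mapping reads were handled is not given in the sources used here, so near-identical and overlapping genes are uncertain. Of 55359 identifiers, 52083 matched GENCODE M21, which gave symbols and positions. Columns with no sample numbered 0.

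Genes passing filterByExpr (edgeR 4.0.16, R 4.3.3, minimum count 10) were tested by edgeR's quasi-likelihood method with TMM scaling, with Benjamini-Hochberg adjustment over all 14637 genes at a false discovery rate of 0.1, the study's cutoff. The script was also run on simulated counts with known changes. Standard errors were taken from the log2 fold change and F. Ratios of summed counts carry exact 95% intervals for counting error, used where a group had 1 to 3 counts. This replaced a planned bound from 3 counts.

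The members and lists were chosen with earlier results of these data known. Named genes were the members, the unlisted *Gbp* loci, *Irf4*, up to 3 called genes per list by size of change, fixed interferon pathway genes, the 3 nearest protein-coding neighbours per side of a cluster, and the 5 genes nearest in pattern. Others were named after their values were seen. Some genes of this rule are not reported here. Promoters came from RefSeq, which matched 4 of the 9 members. Depth was 31230223 to 37817752 counts. Alternatives were DESeq2 1.42.0, other scalings and filters, a replicate block, a rate of 0.05 and leaving out each library.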

Additional observations from a re-analysis of the deposited data

How the results depend on the processing

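The number of *Gbp* genes called higher was 8 with DESeq2, with DESeq2 size factors, with every gene that had a count tested (9 members tested), with a filter of 1 CPM and with the replicate block. It was 7 with library size only and at a false discovery rate of 0.05, and 7 to 8 when a library was left out, with *Gbp7* the gene lost each time. No member was lower under any of these alternatives. The replicate number as a block gave 6394 calls over all genes against 4349 without it, 8 *Gbp* calls, and 52 calls in the related lists against 42. With the block, 7 of 8 stromal markers were called higher, 2 of 7 atlastins and dynamins were called (1 higher, 1 lower) and 2 of 5 prenylation enzymes were called lower. Libraries with the same number share only that number in the labels. Their deviations from the group means correlated at r = 0.26 across 14637 genes, which are not independent replicates. The log2 fold changes over the 10 alternatives ran from 1.96 to 2.15 for *Gbp2*, 0.66 to 0.78 for *Gbp3*, 2.56 to 2.74 for *Gbp4*, 2.54 to 2.81 for *Gbp5*, 4.53 to 5.35 for *Gbp6*, 0.25 to 0.78 for *Gbp7*, 3.23 to 3.33 for *Gbp9* and 5.84 to 6.10 for *Gbp10*. Calls in the related lists numbered 42, with 36 to 39 when a library was left out. With 2 libraries a group, spread between libraries is poorly known, and *Gbp8* and *Gbp10* with EV-RV rest on 1 or 2 counts per library.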
